A study of Mus musculus with 6 samples.

Results

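The nuclear genes for the subunits of the mitochondrial respiratory chain and ATP synthase were compared between libraries labelled Hes1KO and libraries labelled WT. Members were taken from the deposited table by symbol (Nduf, Sdh, Uqcr, Cyc1, Cox4 to Cox8 and Atp5 names, without assembly factors named Ndufaf and without symbols ending in -ps), which gave 90 genes and left 26898 others in the table. Complex I had 43 of them, complex II 4, complex III 9, complex IV 17 and complex V 17. The pattern also kept Cox7c-ps1, whose symbol marks a pseudogene, and it left out 2 pseudogene symbols, Ndufs5-ps and Ndufab1-ps. Genes were assigned to complexes by symbol, so Ndufa4, which is now regarded as a subunit of complex IV, is counted under complex I.

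The respiratory chain passes electrons from NADH (complex I) and succinate (complex II) through ubiquinone, complex III and cytochrome c to oxygen (complex IV), and complexes I, III and IV pump protons across the inner mitochondrial membrane. Complex V, ATP synthase, makes ATP from the returning protons. All complexes but complex II also hold subunits made from the mitochondrial genome, which are not analysed here. In marrow, oxidative metabolism differs between cell types: mature neutrophils rely mainly on glycolysis, macrophages and dividing progenitors keep many mitochondria, and red cells discard theirs as they mature.

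The 6 libraries came from C57BL/6 mice and were labelled as bone marrow mesenchymal stromal cells. In 3 libraries, labelled Hes1KO, a floxed Hes1 allele (Hes1fl/+) had been crossed to Prx1Cre, a transgene in which the Prx1 promoter and enhancer drive Cre in limb bud mesenchyme and part of the craniofacial mesenchyme. The other 3 were labelled WT. The series' design text also speaks of resistant lines and an NFA treatment, which no sample label names. The labels do not give the ages, the Cre status of the WT mice or the number of floxed alleles in the knockouts, and the protocol for both groups speaks of heterozygous Hes1fl/+ mice. Whether the replicates were separate animals is not stated either, so the p-values below cover only the spread among libraries, which may be technical.

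The Hes1 KO libraries held 20563116 to 22131465 counts, WT replicate 2 held 5812598, WT replicate 3 held 12109170 and WT replicate 1 only 66167. WT replicate 1 was therefore kept apart. Unless stated otherwise, results come from the 5 other libraries (the 5-library fit), and levels are scaled CPM (counts relative to library size) with the library size corrected by TMM, a scaling that damps the weight of a few very abundant genes. Hes1 itself was at 6.63, 9.87 and 10.02 scaled CPM in the Hes1 KO libraries, below WT replicates 2 and 3 at 39.2 and 64.1 (log2 fold change -2.55, SE 0.31; edgeR, adjusted p = 0.0294).

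The libraries were not of like cell content. The 12 stromal markers summed to at most 0.00816% of counts in any library, and Prrx1, the gene that gives the Cre line its name, had 0 to 2 counts. The 14 neutrophil markers took 4.88% to 13.3% of counts in Hes1 KO and 0.0363% to 1.53% in WT. The 12 macrophage markers took 1.01% to 2.01% against 0.0174% to 0.462%, but Lyz2, which neutrophils also make in quantity, was 78.7% to 91.4% of that sum in Hes1 KO. Without Lyz2 they took 0.173% to 0.216% in Hes1 KO, 0.0457% and 0.0122% in WT replicates 2 and 3 and 0.413% in WT replicate 1. The 8 B cell markers ran the other way among the deeper libraries, at 0.0798% to 0.139% in Hes1 KO, 0.483% in WT replicate 2 and 0.235% in WT replicate 3. The 10 erythroid markers took 42.4% of WT replicate 3 and at most 0.313% of any other library, and 4 nuclear noncoding RNAs (Malat1, Neat1, Rn7sk and Rpph1) took 1.99% of WT replicate 2 and at most 0.387% elsewhere. The part of these differences in the values below, and in those of Hes1 above, was not tested. In bulk libraries, fewer cells of a type and less RNA per cell cannot be told apart.

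A set of 3 short motifs were searched in the RefSeq promoters (GRCm38.p6, 250 bases before to 50 after a start, both strands), since the factors that bind them are known regulators of respiratory genes. At least 1 promoter was found for 70 members. The NRF1 motif GCGCATGC was in 14.3% of these members' promoters, against 5.26% of 12080 genes tested with a promoter and 3.05% of all 27025. The GABPA motif CCGGAAG was in 24.3%, against 18.0% and 9.93%, and the YY1 motif AAGATGGC in 14.3%, against 4.92% and 3.19%. The motifs were unevenly spread over the complexes: the YY1 motif was found for 7 of 35 complex I and 3 of 15 complex V members and for 0 of 20 others. The windows below are the 6 matches in members that rose in Hes1 KO, shown because these genes carry the comparison. Of the 14 such members with a promoter, 1 (7.14%) had the NRF1 motif, 2 (14.3%) the GABPA motif and 3 (21.4%) the YY1 motif. Capitals mark the motif and the gene's own strand is printed.
Sdhb, NRF1, chr4:140961206-140961235, + strand: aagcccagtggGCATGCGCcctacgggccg
Sdhb, GABPA, chr4:140961266-140961295, + strand: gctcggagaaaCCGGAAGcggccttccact
Sdhd, GABPA, chr9:50603877-50603906, - strand: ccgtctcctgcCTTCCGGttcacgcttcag
Ndufa9, YY1, chr6:126849097-126849126, - strand: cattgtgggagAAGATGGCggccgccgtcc
Ndufb8, YY1, chr19:44555393-44555422, - strand: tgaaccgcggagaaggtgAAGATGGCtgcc
Atp5pb, YY1, chr3:105959248-105959277, - strand: atgtgcgagcgGCCATCTTgctcctgcccc
In Sdhb the NRF1 match began 54 bases before the start and the GABPA match at base 7 from it, and in Sdhd the GABPA match began 46 bases before. The YY1 matches lay near the start, 3 bases before it in Atp5pb and at bases 30 and 39 in Ndufa9 and Ndufb8. These are matches of letters and not measured binding.

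Subunit genes were mostly higher in Hes1 KO. In the 5-library fit 88 members passed the filter on low counts, 15 of these rose and 0 fell, with log2 fold changes of 0.92 to 1.88 among the 15 (edgeR, adjusted p = 0.0300 to 0.0482). Of all 16190 genes tested, 15.5% passed in either direction, 7.44% rising and 8.09% falling. The fold change was above 0 for 79 of the 88, against 50.7% of all genes, and its median was 0.98, against 0.02. The 3 Hes1 KO libraries lay above both WT libraries for 60 members (background 31.2%) and below both for 1, Atp5l (background 24.5%). The calls rest on the choice of libraries: they numbered 0 with WT replicate 1 included, 0 without any 1 of the Hes1 KO replicates, 25 (23 rising) without WT replicate 2 and 72 without WT replicate 3. They also numbered 0 with total library size in place of TMM, and 0 with limma-voom and quality weights. In each of these settings with 0 members called, 0 of all genes tested were called too. The shares of all genes without WT replicate 2 or 3 are given below. The number of members with a fold change above 0 was 74 to 85 of 88 under the other scalings. Of the 8 B cell markers 2 fell and 0 had a fold change above 0. Over the same libraries 6 of 10 tested macrophage markers and 1 of 14 neutrophil markers rose, and 10 of 10 macrophage and 14 of 14 neutrophil markers had a fold change above 0.

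**Figure D1:**
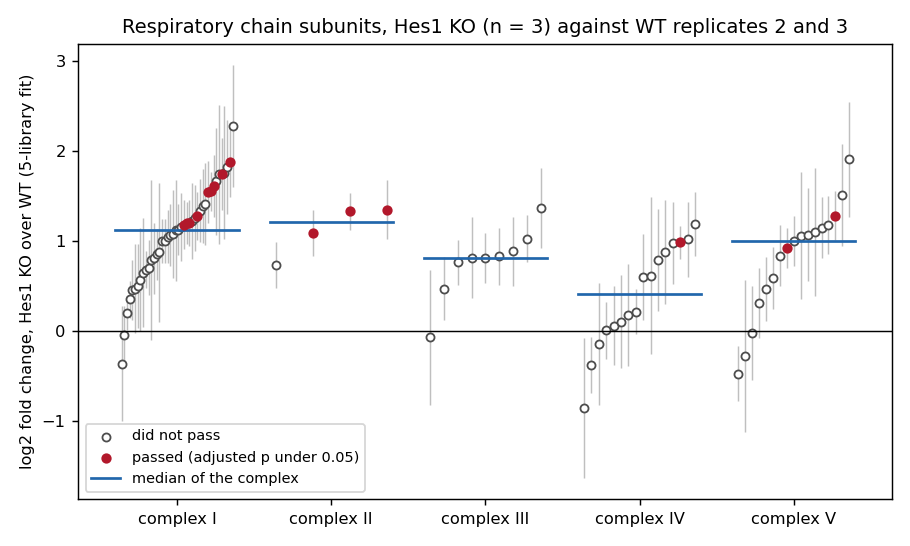
Log2 fold change of each tested subunit gene, Hes1 KO (3 libraries) over WT replicates 2 and 3, by complex; points are genes in order of fold change, grey bars 1 SE, filled points genes that passed, blue lines medians. Complexes I and II have the highest medians, 1.12 and 1.21, and complex IV the lowest, 0.40.

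The complexes differed in how far their genes stood from 0. Complex I had a median log2 fold change of 1.12, with 40 of 42 tested members higher and 9 that rose. Complex II had 1.21, with 4 of 4 higher and 3 that rose. Complex III had 0.81 (8 of 9 higher, 0 rose) and complex V 1.00 (14 of 17 higher, 2 rose). Complex IV had the lowest median, 0.40, with 13 of 16 higher and 1 that rose. The order of the medians changed with the WT library. Against WT replicate 2 alone, complexes I to V had medians of 1.78, 1.46, 1.40, 1.42 and 1.47. Against WT replicate 3 alone they had 0.81, 0.91, 0.47, 0.09 and 0.67. Summed CPM without TMM was also compared, as the log2 ratio of the Hes1 KO mean over that of WT replicates 2 and 3. This ratio was lowest for complex V, 1.29, and was 1.35 for complex IV. No test of the difference between complexes was made.

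Summed over its subunit genes, complex I stood at 2212, 2784 and 2148 scaled CPM in Hes1 KO replicates 1, 2 and 3 and at 737 and 1504 in WT replicates 2 and 3. Complex II stood at 508, 514 and 483 against 206 and 283. For both complexes the WT sums lay below every Hes1 KO sum. Complex III (745, 885 and 716 against 297 and 694) and complex V (2675, 2817 and 2554 against 1107 and 2438) also kept apart, but with WT replicate 3 close to the lowest Hes1 KO library. Complex IV overlapped, at 1095, 1438 and 1071 against 426 and 1184. As shares of all counts, without TMM, the 90 genes took 0.913%, 0.888% and 0.863% of the Hes1 KO libraries and 0.562%, 0.377% and 0.271% of WT replicates 1, 2 and 3. On that scale WT replicate 3, rich in globin counts, was the lowest library, whereas TMM, with a factor of 0.445 for WT replicate 3 and 1.37 for WT replicate 2, placed it above WT replicate 2.

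**Figure D2:**
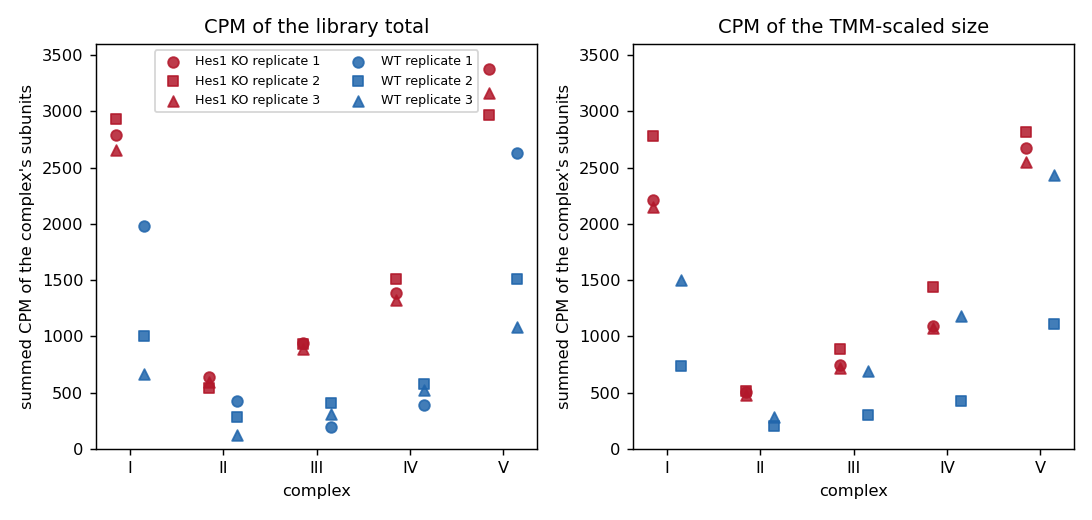
Summed CPM of the subunit genes of each complex in each library, relative to the library total (left, 6 libraries) and to the TMM-scaled size (right, without WT replicate 1); colour marks the group and shape the replicate. On the left every Hes1 KO point lies above every WT point of its complex; on the right complex IV overlaps, with WT replicate 3 at 1184.

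Complex I oxidises NADH in a matrix arm and pumps protons in a membrane arm. Ndufv2, an iron-sulfur subunit of the NADH-oxidising module, was at 132, 148 and 116 scaled CPM in Hes1 KO replicates 1, 2 and 3 and at 42.2 and 48.0 in WT replicates 2 and 3, the order used for all genes that follow. It rose by 1.55 on the log2 scale (SE 0.22; edgeR, adjusted p = 0.0300), and on the TMM scale its WT libraries lay close together and far below Hes1 KO. In plain CPM, without TMM, they were further apart, at 57.5 and 21.3, and still below Hes1 KO at 144 to 166. Ndufv3, an accessory subunit of the same module, was at 44.7, 70.7 and 48.3 against 22.5 and 22.5 and rose by 1.28 (SE 0.27; edgeR, adjusted p = 0.0390). Ndufa9, which stabilises the joint of both arms, rose by 1.20 (SE 0.23; edgeR, adjusted p = 0.0351), from 30.9 and 43.7 in WT to 80.3 to 92.7 in Hes1 KO.

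The other 6 complex I members that rose are accessory subunits of the membrane arm, Ndufb1, Ndufb2, Ndufb3, Ndufb5, Ndufb8 and Ndufc2, with log2 fold changes of 1.18 to 1.88 (edgeR, adjusted p = 0.0385 to 0.0452). Ndufc2 was highest among them: its levels were 82.2, 87.6 and 64.6 in Hes1 KO against 13.2 and 29.4 (log2 fold change 1.88, SE 0.39). Ndufb3 was at 48.0, 55.0 and 46.8 against 8.73 and 21.2 (1.74, SE 0.40). Ndufb1 was at 90.7, 139.9 and 87.8 against 27.8 and 45.2, and Ndufb8 at 89.2, 112 and 81.2 against 34.3 and 47.8. In all 4 genes WT replicate 2 was the lowest library and WT replicate 3 lay below every Hes1 KO library. Ndufb2 (32.7 to 42.6 against 8.09 and 15.8) and Ndufb5 (69.9 to 85.9 against 25.7 and 41.1) had the same order.

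The conserved core subunits of the matrix arm differed among themselves. Of the core genes named here, Ndufv2 passed and Ndufv1, Ndufs1, Ndufs3, Ndufs7 and Ndufs8 did not. Ndufv1, which binds NADH and flavin, had a log2 fold change of 1.00 (SE 0.25; edgeR, adjusted p = 0.0507), Ndufs7 of 1.25, Ndufs8 of 1.15 and Ndufs3 of 0.45. In plain CPM Ndufs1, the largest core subunit, was at 113, 85.4 and 101 in Hes1 KO against 93.9 and 34.6. On the TMM scale it was nearly level, at 89.6, 81.1 and 81.9 scaled CPM against 69.0 and 77.9 (edgeR, adjusted p = 0.463). Ndufa4, listed here by its symbol, was at 134, 144 and 122 against 29.0 and 73.1 (1.39, SE 0.41; edgeR, adjusted p = 0.0698). Ndufab1, the acyl carrier protein, overlapped between the groups (4.35 to 5.42 against 5.94 and 4.09).

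Complex II, succinate dehydrogenase, also works in the citric acid cycle and is the only complex made wholly from nuclear genes. Its 2 membrane anchors and its iron-sulfur subunit rose. Sdhd, an anchor, was at 127, 139 and 115 scaled CPM against 47.7 and 53.5 in the WT libraries (log2 fold change 1.33, SE 0.21; edgeR, adjusted p = 0.0301). Sdhc, the other anchor, was at 74.5, 84.8 and 70.2 against 28.5 and 43.5 (1.09, SE 0.26; edgeR, adjusted p = 0.0457). Sdhb, the iron-sulfur subunit whose promoter windows are shown above, was at 90.9, 127 and 96.1 against 29.7 and 52.8 (1.35, SE 0.32; edgeR, adjusted p = 0.0482). Sdha, the flavin subunit that oxidises succinate, was at 216, 162 and 201 against 100.02 and 133; the groups did not overlap, and its log2 fold change of 0.72 did not pass (SE 0.26; edgeR, adjusted p = 0.0968).

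In complex III, which passes electrons from ubiquinol to cytochrome c, 0 of 9 genes passed in edgeR. An unadjusted p under 0.05 was found for 5 of the 9, and for 6442 of all 16190 genes tested. Uqcrfs1, the Rieske iron-sulfur protein, was nearest, at 106, 119 and 96.1 scaled CPM against 41.9 and 63.6 (log2 fold change 1.02, SE 0.26; edgeR, adjusted p = 0.0521). Cyc1, cytochrome c1, had a log2 fold change of 0.81, Uqcrc1 of 0.76, Uqcr11 of 0.88 and Uqcr10 of 1.36. Uqcrb overlapped between the groups, with 25.8 in WT replicate 2 and 23.2 to 29.7 in Hes1 KO. Uqcrh, the hinge protein that helps cytochrome c dock, stood out: it was at 33.1 in WT replicate 2 and 249.9 in WT replicate 3, on either side of the Hes1 KO libraries at 117, 166 and 119. That place depends on TMM: in plain CPM WT replicate 3 (111) lay below every Hes1 KO library (148 to 175).

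Complex IV, cytochrome c oxidase, hands the electrons to oxygen. In 4 of its 16 tested genes every Hes1 KO library lay above both WT libraries. The share was near the 31.2% of all genes, against 33 of 42 in complex I. The 4 include the pseudogene symbol Cox7c-ps1 (1.18 to 1.93 scaled CPM in Hes1 KO, 0.632 and 0.930 in WT). Cox5a, a structural subunit, was the 1 member that rose, from 39.6 and 42.9 scaled CPM in WT to 79.3, 85.0 and 80.6 in Hes1 KO (log2 fold change 0.98, SE 0.18; edgeR, adjusted p = 0.0330). Cox4i1 was at 239, 305 and 220 against 75.0 and 177 and Cox6b1 at 132, 184 and 132 against 45.0 and 86.4; both kept the groups apart and neither passed (edgeR, adjusted p = 0.129 and 0.0705). Cox6a1 was at 31.1 in WT replicate 2 and 192 in WT replicate 3, around Hes1 KO at 86.0, 121 and 94.5. Cox7b (43.6 and 162 in WT), Cox8a (39.5 and 119) and Cox7a2 (32.6 and 132) had WT replicate 3 inside or above the range of Hes1 KO, which was 95.8 to 125, 105 to 148 and 129 to 187. Cox7a2l was at 73.6 and 121 in WT and 81.3 to 125 in Hes1 KO, and Cox5b at 13.0 and 10.6 and 12.1 to 15.7.

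Several complex IV subunits have a second gene used in other tissues, and the library levels of these were given per kilobase of transcript (GENCODE M21 lengths), as mean scaled CPM in Hes1 KO. The common forms Cox4i1, Cox6a1, Cox6b1, Cox7a2 and Cox8a stood at 333, 176, 242, 229 and 218. Their counterparts Cox4i2, known from lung, Cox7a1, of heart and muscle, and Cox8b stood at 0.580, 1.99 and 0.192, so they were low. Cox6a2, the heart and muscle form, and Cox6b2, the testis form, were higher, at 23.3 and 13.4. By library, Cox6b2 was at 6.95, 8.61 and 7.94 scaled CPM in Hes1 KO, 2.91 in WT replicate 2 and 25.7 in WT replicate 3. Cox6a2 was at 15.3, 16.6 and 15.6, 1.64 and 19.1, so that on the TMM scale both genes, like Cox6a1, were lowest in WT replicate 2 and highest in WT replicate 3. In plain CPM WT replicate 3 was still highest for Cox6b2 (11.4, against 8.77 to 9.82 in Hes1 KO), but it lay below every Hes1 KO library for Cox6a2 (8.51 against 17.5 to 19.3), Cox6a1 (85.4 against 108 to 128) and Cox7b (71.8 against 118 to 139). Cox7b2 and Cox8c are not analysed here. Ndufa4l2, a relative of Ndufa4 known from hypoxic cells, had 3 to 8 counts in Hes1 KO and 0 to 1 in WT and, with Cox8b, was too low to be tested.

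Complex V has a catalytic head and a membrane ring that turns a shaft within the head. Atp5c1, the gamma subunit that forms the central shaft, was at 208, 243 and 194 scaled CPM against 70.8 and 107, and rose by 1.28 (SE 0.27; edgeR, adjusted p = 0.0405). Atp5pb, the b subunit of the outer stalk, was at 154, 185 and 143 against 84.7 and 85.3 and rose by 0.92 (SE 0.22; edgeR, adjusted p = 0.0467). The head itself differed less: Atp5a1, the alpha subunit, was at 693, 658 and 657 against 353 and 540 (edgeR, adjusted p = 0.251). Atp5b, the catalytic beta subunit, was at 749, 671 and 703 in Hes1 KO, below WT replicate 3 at 1082 and above WT replicate 2 at 357, whereas in plain CPM both WT libraries (481 and 486) lay below Hes1 KO (707 to 945). Among membrane subunits, Atp5j2 (113, 146 and 107 against 11.5 and 53.7) and Atp5md (23.5, 31.1 and 23.1 against 3.79 and 14.5) had large log2 fold changes, 1.90 and 1.51, with wide errors (SE 0.64 and 0.57; edgeR, adjusted p = 0.0886 and 0.110).

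Each WT library was then set alone against the 3 Hes1 KO libraries. These fits share the Hes1 KO libraries and assume that the lone WT library varies like the Hes1 KO libraries. Against WT replicate 2, 72 of 88 members rose and 0 fell (background 17.1% rising and 18.4% falling), with a median log2 fold change of 1.58. Against WT replicate 3, 23 rose and 2 fell (background 14.6% and 14.3%), with a median of 0.66. In complex III 8 of 9 rose against WT replicate 2 and 1 of 9 against WT replicate 3. In complex IV 10 of 16 rose against WT replicate 2, while 1 rose and 2, Cox6b2 and Cox6a1, fell against WT replicate 3. The log2 fold change of Cox6a1 was 1.73 against WT replicate 2 and -0.93 against WT replicate 3 (edgeR, adjusted p = 0.0109 and 0.0416), and that of Cox6b2 1.46 and -1.70 (edgeR, adjusted p = 0.0240 and 0.00634). Sdhd (1.45 and 1.25), Ndufv2 (1.68 and 1.47) and Cox5a (1.08 and 0.93) had like fold changes against both, on the TMM scale. In plain CPM WT replicates 2 and 3 differed more, at 64.9 and 23.8 for Sdhd, 57.5 and 21.3 for Ndufv2 and 53.8 and 19.1 for Cox5a. In scaled CPM, WT replicate 3 was above WT replicate 2 for 78 of 90 members (86.7%) and for 48.2% of all genes tested. In plain CPM it was above for 23 members (25.6%) and for 9.81% of all genes tested. WT replicate 2 is the library with the large nuclear RNA share and WT replicate 3 the one with the erythroid share.

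**Figure D3:**
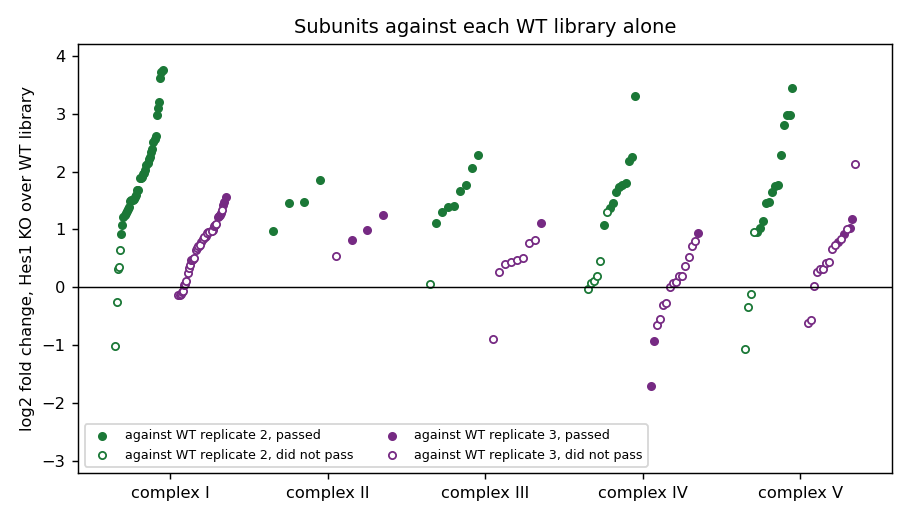
Log2 fold change of each tested subunit gene, Hes1 KO (3 libraries) over WT replicate 2 alone (green) and over WT replicate 3 alone (purple), by complex; filled points passed. Against WT replicate 2 nearly every gene lies above 0 (82 of 88), against WT replicate 3 fewer do (74 of 88), and complex IV has 2 filled points below 0.

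WT replicate 1 held 372 counts of the 90 genes, 0.562% of its total, a share between those of Hes1 KO and of the other WT libraries. Its counts were patchy: 58 members had 0 and 32 had a count. Among the 32, 17 had a CPM above every Hes1 KO library and 15 below every one, with 0 in between. Atp5a1 had 67 counts (1013 CPM, against 693 to 874 in Hes1 KO) and Atp5g3, a ring subunit, 45 (680 CPM, against 180 to 216), while Cox4i1 had 0 (272 to 321 CPM in Hes1 KO). A count of 0 allows up to 45.3 CPM (3 counts), counting error alone considered, and 33 of the members at 0 exceeded that in every Hes1 KO library. Among genes whose lowest Hes1 KO CPM lay between that floor and 10 times it, 57.9% of 57 members were at 0 in WT replicate 1, against 17.3% of 4090 other genes.

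**Figure D4:**
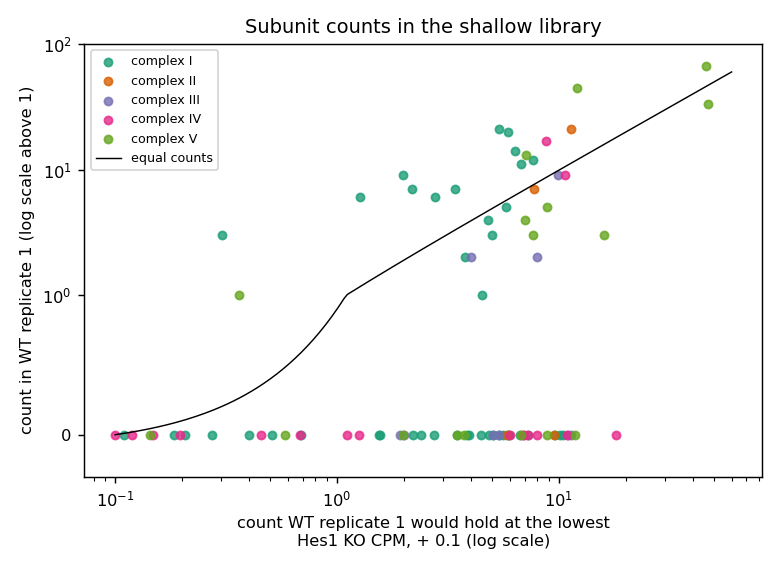
Count of each subunit gene in WT replicate 1 (vertical axis) against the count it would hold at the lowest CPM of the Hes1 KO libraries (horizontal axis, with 0.1 added); the line marks equal counts and colour the complex. Points lie along 0 or mostly well off the line, as with Atp5a1 at 67 counts and Cox4i1 at 0.

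With WT replicate 1 included (the 6-library fit), 0 of 87 tested members passed and 0 of all 14756 genes (background 0%). In edgeR 8 of the 87 members had an unadjusted p under 0.05, as had 2200 of the 14756 genes. DESeq2 (5.30% of all genes passed, 1.48% rising and 3.82% falling) and limma-voom (0 of all genes) each called 0 members. The median log2 fold change of the members was 0.97, with 77 of 87 higher. The estimates moved with the counts of WT replicate 1: Ndufa9, with 20 counts there, had 0.08 in place of 1.20, and Ndufv1, with 21, had -0.19 in place of 1.00. Sdhd, with 0, had 1.75 in place of 1.33.

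Many subunit genes have processed pseudogenes, and reads that match several places may be lost or split in counting; their treatment is not stated in the sources at hand. Coding sequences of the 82 members with a coding transcript in GENCODE M21 were aligned to its pseudogene transcripts. At least 1 pseudogene transcript matched 20 of them over 80% of the coding sequence with 95% identity. Per kilobase, the median level of these 20 in Hes1 KO was 48.4 scaled CPM, against 83.2 for the 62 others. The lowest 7 of the 20 were Atp5g2, Ndufab1, Atp5g1, Ndufb4, Ndufs5, Atp5l and Cox7c, at 1.13 to 8.75 per kilobase. Atp5l alone matched 7 pseudogenes. These levels also depend on the transcript chosen, which was 4715 bases long for Atp5g1 and 3479 for Ndufab1. Undivided by length, the 2 genes were at 7.07 and 4.86 mean scaled CPM in Hes1 KO. Ndufb2, with no such copy and a transcript of 4371 bases, was at 8.34 per kilobase and 36.4 undivided.

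The comparison was then read within these 20, with no test. They had a median log2 fold change of 0.46, against 1.02 for the 60 tested members without such copies, and 1 of the 20 (Ndufb3) rose, against 12 of the 60 and 7.44% of all genes. Against WT replicate 3 alone the medians were 0.42 and 0.60. Ndufb4 was at 1.29, 1.88 and 1.57 scaled CPM in Hes1 KO against 3.29 and 0.744, Cox7c at 4.55, 5.07 and 4.56 against 4.93 and 7.44, Atp5g2 at 0.788, 0.628 and 1.06 against 1.77 and 0.186, and Atp5l at 4.33, 4.13 and 3.18 against 5.06 and 5.76. Ndufb4b and Ndufb4c, which share its symbol stem and whose sequences were not compared here, had more reads than Ndufb4 in each Hes1 KO library (54 to 80 and 127 to 185 counts against 36 to 42). Ndufb4c had the largest log2 fold change of all members, 2.28, which did not pass (SE 0.68; edgeR, adjusted p = 0.0703). The excluded Ndufs5-ps had 582 to 672 counts in Hes1 KO, while Ndufs5 itself had 68 to 87. How far reads were shared among such genes was not tested, and their values are given as uncertain.

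**Figure D5:**
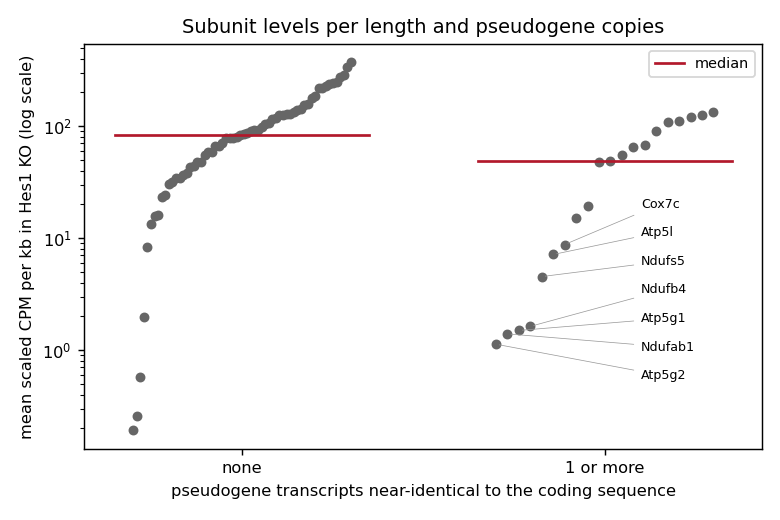
Mean scaled CPM per kilobase of transcript in the 3 Hes1 KO libraries (log scale) for 62 subunit genes without and 20 with a near-identical pseudogene transcript; points are genes in order, red lines medians, and the lowest 7 of the second class are named. The 7 named genes lie between 1.13 and 8.75; the lowest points on the left are Cox8b, Ndufa4l2, Cox4i2 and Cox7a1.

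Other genes of the pathway were read from lists. Of 45 tested assembly factors, which build the complexes, 7 rose and 0 fell (background 7.44% rising), with a median log2 fold change of 0.59. They included Uqcc2 of complex III (6.32 and 10.8 scaled CPM in WT, 28.4 to 35.1 in Hes1 KO), Ndufaf2 and Ndufaf7 of complex I, and Coa6 and Cmc2 of complex IV, with log2 fold changes of 1.26 to 2.05 (edgeR, adjusted p = 0.0300 to 0.0423). Foxred1 (complex I) and Tmem70 (complex V) rose by 0.97 and 1.14. With its 7 counts in WT replicate 1 included, Coa6 had a log2 fold change of -0.39. Of 14 tested genes for ubiquinone synthesis and electron carriers 2 rose and 1 fell (background 7.44% rising and 8.09% falling). Etfb, a subunit of the flavoprotein that feeds electrons from fat oxidation to ubiquinone, was at 97.0, 89.6 and 90.7 against 32.2 and 34.0 (log2 fold change 1.48, SE 0.19), and its partner Etfa rose by 0.81 (edgeR, adjusted p = 0.0294 and 0.0467). Coq8a, a kinase-like protein needed for ubiquinone synthesis, fell by 1.48 (SE 0.24; edgeR, adjusted p = 0.0303). Of 16 citric acid cycle and pyruvate dehydrogenase genes 1 rose, Dld by 1.03, a share near the background of 7.44%. Their median log2 fold change was 0.47.

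Of 14 genes known to control this programme 0 rose and 2 fell (background 8.09% falling), and 5 had a fold change above 0, with a median log2 fold change of -0.13. Ppargc1a, the coactivator PGC-1alpha of mitochondrial gene expression, was at 0.681, 0.314 and 1.26 scaled CPM in Hes1 KO, far below WT at 9.74 and 7.81 (log2 fold change -3.53, SE 0.60; edgeR, adjusted p = 0.0305). It rested on few reads, 7 to 32 counts in a Hes1 KO library, 77 in WT replicate 2 and 42 in WT replicate 3. Gabpb1, the partner of GABPA, was at 53.2, 53.7 and 59.6 against 170 and 102 (-1.29, SE 0.26; edgeR, adjusted p = 0.0369). Nrf1 was at 60.1 to 65.5 against 88.9 and 64.3, Gabpa at 62.0 to 91.6 against 99.0 and 72.5, Tfam, which packages and transcribes mitochondrial DNA, at 40.1 to 50.7 against 34.6 and 35.7, and Esrra at 24.1 to 33.1 against 15.9 and 21.6. None of these 4, nor Ppargc1b, passed in edgeR.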

How the data were processed

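The authors deposited whole-number read counts per gene symbol, which the table's own name credits to featureCounts. GRCm39, edgeR and limma are named in the submitters' processing notes. Libraries were made with a stranded poly(A) kit, per the labels' protocols. The aligner, annotation, strand setting, treatment of reads with several matches and versions are not stated there or in the labels. Groups and replicate numbers came from the sample titles.

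Unchanged counts went into edgeR 4.0.16, run in R 4.3.3, with these steps: filterByExpr, TMM, quasi-likelihood test with the legacy option off, Benjamini-Hochberg adjustment over all genes tested, threshold 0.05. SEs are the fold change over the square root of F. Fits used 6 libraries or 5, without WT replicate 1. Alternatives were other scalings and filters, DESeq2 1.42.0, limma-voom (limma 3.58.1), a replicate block and leaving out each library. Pseudogene matches used blastn 2.17.0. Code was tested on simulated data.

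Genes were named by a rule: members that passed, up to 3 with the highest and 3 with the lowest fold change per complex, tissue forms, core subunits, genes of the other lists that passed, and 6 regulators. Atp5g3, Atp5g1 and Ndufs5 were chosen after their values were seen. A gene that the rule also names is not reported here. Members and lists were chosen with earlier results of these data known. The GENCODE and RefSeq tables are of GRCm38 and gave lengths, copies and promoter sequences with their positions in that build. The names of the mitochondrial genome list matched 0 rows. Counts limit precision in WT replicate 1, where 1 count is 15.1 CPM; intervals cover counting error only.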

Additional observations from a re-analysis of the deposited data

How the results depend on the processing

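In the 5-library fit 15 members passed. The number was 9 with upper-quartile scaling, 0 with total library size alone, 33 with DESeq2, 9 with limma-voom, 0 with limma-voom and quality weights, 7 with edgeR's legacy option, 40 at an adjusted p of 0.10, 0 at 0.01, and 0 to 72 when 1 library was left out. In the 6-library fit 0 passed in every setting, except 15 without WT replicate 1. Replicate numbers were checked for pairing: deviations of same-numbered libraries correlated at 0.15, 0.01 and 0.24, so the numbers were not taken as pairs. With a replicate block 0 members passed in the 5-library fit and 0 in the 6-library fit; Hes1 KO replicate 2 did not correlate best with its own number.

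All-gene calls, 2513, became 4997 (DESeq2), 1440 (limma-voom), 1710 (legacy option), 0 (total library size, quality weights, replicate block, without any 1 Hes1 KO replicate), 4809 (without WT replicate 2) and 6210 (without WT replicate 3). Of all 16190 genes tested, 5473 passed at an adjusted p of 0.10 and 0 at 0.01 in edgeR. Calls split 1204 higher and 1309 lower with TMM and 803 and 1790 with upper-quartile scaling. Upper-quartile scaling moved the median over all genes (log2) to -0.19 and over members to 0.77, and library size alone to 0.44 and 1.59. Of 88 tested members 62 kept their direction in 18 settings and 26 did not, 0 of them among the 15.

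Of the genes followed singly through the settings (not all 26 above), 6 changed sign (log2 fold changes). With WT replicate 1, Ndufv1 gave -0.19 and Coa6 -0.39. Uqcrh, Cox6a1 and Atp5b gave 1.01, 0.88 and 0.80 with library size alone, 0.081, 0.0063 and 0.14 without a filter, 0.58, 0.41 and 0.17 with limma-voom, 0.48, 0.34 and 0.18 with quality weights, 0.63, 0.47 and 0.14 under the block, and 0.10, 0.33 and 0.25 with WT replicate 1. They spanned -0.89 to 2.06, -0.93 to 1.73 and -0.61 to 1.02 when WT replicate 2 or 3 was left out. Cox6b2 gave 0.26 with library size alone and -1.70 to 1.46 when WT replicate 2 or 3 was left out. The cause was not tested. Depth limits WT replicate 1 most, where 1 count is 15.1 CPM.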

Other observations

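Subunit genes were also split by transcript length and set against each WT library. For 31 tested members with transcripts under 700 bases, the median log2 fold change of Hes1 KO was 1.73 against WT replicate 2 and 0.32 against WT replicate 3. For 49 longer ones it was 1.45 and 0.67. The 2 comparisons share the Hes1 KO libraries, and these medians are a description with no test.

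The 2 pseudogene symbols outside the member rule were counted too. Ndufs5-ps was at 24.1, 28.5 and 22.9 scaled CPM in Hes1 KO and at 6.20 and 20.8 in WT replicates 2 and 3. Ndufab1-ps was at 3.94, 4.53 and 4.28 against 2.78 and 1.86. Neither passed (edgeR, adjusted p = 0.233 and 0.123).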
